A study of Mus musculus with 3 samples.

Results

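The genes described here are 9 components and targets of the unfolded protein response and the integrated stress response, chosen by name: Atf4, Ddit3, Trib3, Chac1, Asns, Psat1, Hspa5, Herpud1 and Xbp1. They are 9 of the 32285 genes in the deposited matrices. All 9 had counts in each of the 3 libraries.

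The study profiled full-thickness dorsal skin of wild-type C57BL/6J mice, 8 weeks old at the start, with droplet RNA sequencing of single cells, giving 3 libraries for 3 conditions. CON received vehicle without irradiation. UV received vehicle and was exposed to a mix of UVA (0.60 mW/cm2) and UVB (3.5 mW/cm2) on alternate days over 12 weeks. Rux received the same irradiation with a topical ointment of 1.5% ruxolitinib, an inhibitor of the kinases JAK1 and JAK2, and the number of mice behind a library is not given in the sources used here.

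When unfolded proteins accumulate in the endoplasmic reticulum (ER), the sensors IRE1, PERK and ATF6 start the unfolded protein response: IRE1 splices the mRNA of the transcription factor Xbp1, and ATF6 and spliced XBP1 induce chaperones such as Hspa5 (BiP) and degradation factors such as Herpud1. PERK and the kinases GCN2, PKR and HRI also phosphorylate the initiation factor eIF2alpha, which lowers translation in general but raises that of Atf4. ATF4 in turn induces Ddit3 (CHOP, a factor of prolonged stress), Trib3 (a pseudokinase that restrains the response), Chac1 (which degrades glutathione), Asns (asparagine synthetase) and Psat1 (a step of serine synthesis). In skin these pathways are best known from ultraviolet damage to keratinocytes and from cells with heavy secretion, such as collagen-making fibroblasts. The counts are of mRNA 3′ ends, so they report neither ATF4 protein nor the splicing of Xbp1.

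The plainest pattern was epithelial. It lay in inner root sheath and hair shaft (HF-like) cells and in the epithelial clusters led by Hist1h1b and by Ptn. There Trib3, Chac1, Asns and Psat1 stood higher in UV than in CON and lower in Rux than in UV. From UV to Rux the differences of Asns and Psat1 were under 1.5-fold, and those of Hspa5 and Xbp1 were under 1.5-fold in both comparisons. Trib3 and Chac1 were rare in these cells, and Ddit3, another ATF4 target, was lower in UV than in CON. A dividing cluster of basal keratinocytes, led by Krt14, did not share the pattern. In that cluster Psat1 was highest in Rux and Ddit3 was higher in UV than in CON. Fibroblasts had lower Ddit3 and Xbp1 in both irradiated libraries, with Psat1 high in UV alone, and the endothelium of both kinds had lower levels of several members in UV and Rux than in CON.

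Promoters are printed where they hold the letters that ATF6 and XBP1, or ATF4 are known to bind. Sequences were taken from the RefSeq annotation of GRCm38.p6, in windows from 250 bases before to 50 bases after the start of a gene, in which all 9 members had a window. The ER stress response element, searched as CCAAT, any 9 bases, and CCACG on either strand, was found in 1 of the 9 members, Hspa5, and in 39 of 32851 windows (0.119%). Other forms of this element were not searched. A gene without a match, such as Herpud1, may still hold letters that ATF6 or XBP1 bind. The C/EBP-ATF response element, labelled the ATF4 element below and searched as TGATGNAAN on either strand, was found in Trib3, Chac1, Asns and Herpud1, and in 1299 windows (3.95%). A match of letters is a description of a sequence and does not show a bound site. In the sequences below, written 5′ to 3′ on the strand of the gene, capitals mark the match; for Chac1, Trib3 and Herpud1 it lies on the opposite strand and reads as the reverse complement.
Hspa5, ER stress response element from base -65, chr2:34771840-34772089 (+): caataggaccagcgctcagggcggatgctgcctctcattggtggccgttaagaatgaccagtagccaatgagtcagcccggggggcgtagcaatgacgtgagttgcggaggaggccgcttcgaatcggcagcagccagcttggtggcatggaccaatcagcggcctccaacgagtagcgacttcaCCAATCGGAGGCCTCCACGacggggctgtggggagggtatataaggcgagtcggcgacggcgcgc
Chac1, ATF4 element from base -194, chr2:119350992-119351241 (+): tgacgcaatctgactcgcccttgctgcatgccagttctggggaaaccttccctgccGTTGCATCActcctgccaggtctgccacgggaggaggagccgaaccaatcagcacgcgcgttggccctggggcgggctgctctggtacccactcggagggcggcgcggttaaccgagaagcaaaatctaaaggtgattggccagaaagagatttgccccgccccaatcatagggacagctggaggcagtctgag
Asns, ATF4 element from base -23, chr6:7693210-7693459 (-): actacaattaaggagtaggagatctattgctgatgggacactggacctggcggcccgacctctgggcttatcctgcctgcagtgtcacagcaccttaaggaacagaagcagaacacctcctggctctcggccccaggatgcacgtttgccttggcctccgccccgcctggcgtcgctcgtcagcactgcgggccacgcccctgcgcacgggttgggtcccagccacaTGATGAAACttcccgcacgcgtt
Trib3, ATF4 element from base 14 after the start, chr2:152344028-152344057 (-): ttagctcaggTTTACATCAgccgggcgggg
Herpud1, ATF4 element from base -113, chr8:94386179-94386428 (+): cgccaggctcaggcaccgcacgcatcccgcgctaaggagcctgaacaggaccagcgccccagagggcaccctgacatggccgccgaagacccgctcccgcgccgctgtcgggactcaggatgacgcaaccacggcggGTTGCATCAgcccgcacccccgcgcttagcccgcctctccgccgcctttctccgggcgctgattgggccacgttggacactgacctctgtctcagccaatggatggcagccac

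In the GENCODE annotation of GRCm38, Atf4 lies at chr15:80255184-80257541 (+), Ddit3 at chr10:127290774-127296288 (+), Trib3 at chr2:152337422-152344032 (-), Chac1 at chr2:119351229-119354381 (+), Asns at chr6:7675169-7693254 (-), Psat1 at chr19:15904678-15947337 (-), Hspa5 at chr2:34771970-34777547 (+), Herpud1 at chr8:94386438-94395377 (+) and Xbp1 at chr11:5520659-5525893 (+). Ddit3 has a second identifier in the files, which held 0 UMIs against 20601 for the first, and 105 of its 1713 exonic bases are shared with that identifier and 68 with Mars on the opposite strand, so reads there may be lost from its level.

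The libraries held 13170 (CON), 12411 (UV) and 11287 (Rux) cells, of which 10885, 10327 and 9386 passed the filters, with a median of 7540, 7639 and 9438 unique molecular identifiers (UMIs, each 1 counted mRNA molecule) per cell. Cells were clustered and the clusters called by their marker genes, as "FB-like" for fibroblast-like, and UMIs were summed per class and library and scaled to a total of 1000000 (counts per 1000000 UMIs, CPM). The comparisons used the 11 classes with at least 50 cells in each library: fibroblast (FB), pericyte (PCY), Schwann cell (SCH), lymphatic (LEC) and vascular (VEC) endothelium, basal keratinocyte (KB), inner root sheath and hair shaft (HF), lymphocyte (LYM), myeloid (MYE), mast cell (MC), and EPI. EPI held epithelial clusters whose markers lay between lineages, counting basal and suprabasal keratinocytes, inner and outer root sheath and sebaceous gland. With 1 library per condition no test across samples was possible, so levels are given with exact Poisson intervals and ratios with exact conditional intervals at 95%, which cover counting error only. All 6 markers fixed for fibroblasts were found in 73.5% to 99.4% of FB-like cells, and all 6 for the inner root sheath in 27.9% to 81.1% of HF-like cells. The labels call the mice female, yet the Y-linked Ddx3y lay at 111, 115 and 121 CPM in CON, UV and Rux and Xist at 0.0917, 0.119 and 0.111 CPM. Of the cell barcodes, 50 were shared by CON and UV, 40 by UV and Rux and 28 by CON and Rux.

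Over all kept cells the chaperone gene Hspa5 was the most abundant member at 547, 551 and 562 CPM in CON, UV and Rux, and Atf4 followed at 344, 375 and 299 CPM. Herpud1 (70.0, 74.0 and 69.4 CPM), Xbp1 (75.6, 71.8 and 71.5 CPM) and Ddit3 (53.8, 48.8 and 39.2 CPM) formed a middle range. Psat1 (24.1, 29.5 and 17.6 CPM) and Asns (21.0, 24.7 and 16.7 CPM) were lower, and Trib3 (2.80, 5.22 and 2.38 CPM) and Chac1 (2.34, 3.93 and 0.891 CPM) were rare. The 4 last named were each highest in UV and lowest in Rux over all cells, but the make-up of the libraries differed, with FB-like cells at 31.9%, 49.9% and 54.3% of kept cells in CON, UV and Rux and EPI-like cells at 24.1%, 13.9% and 11.6%. The values below are therefore taken within classes.

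**Figure D1:**
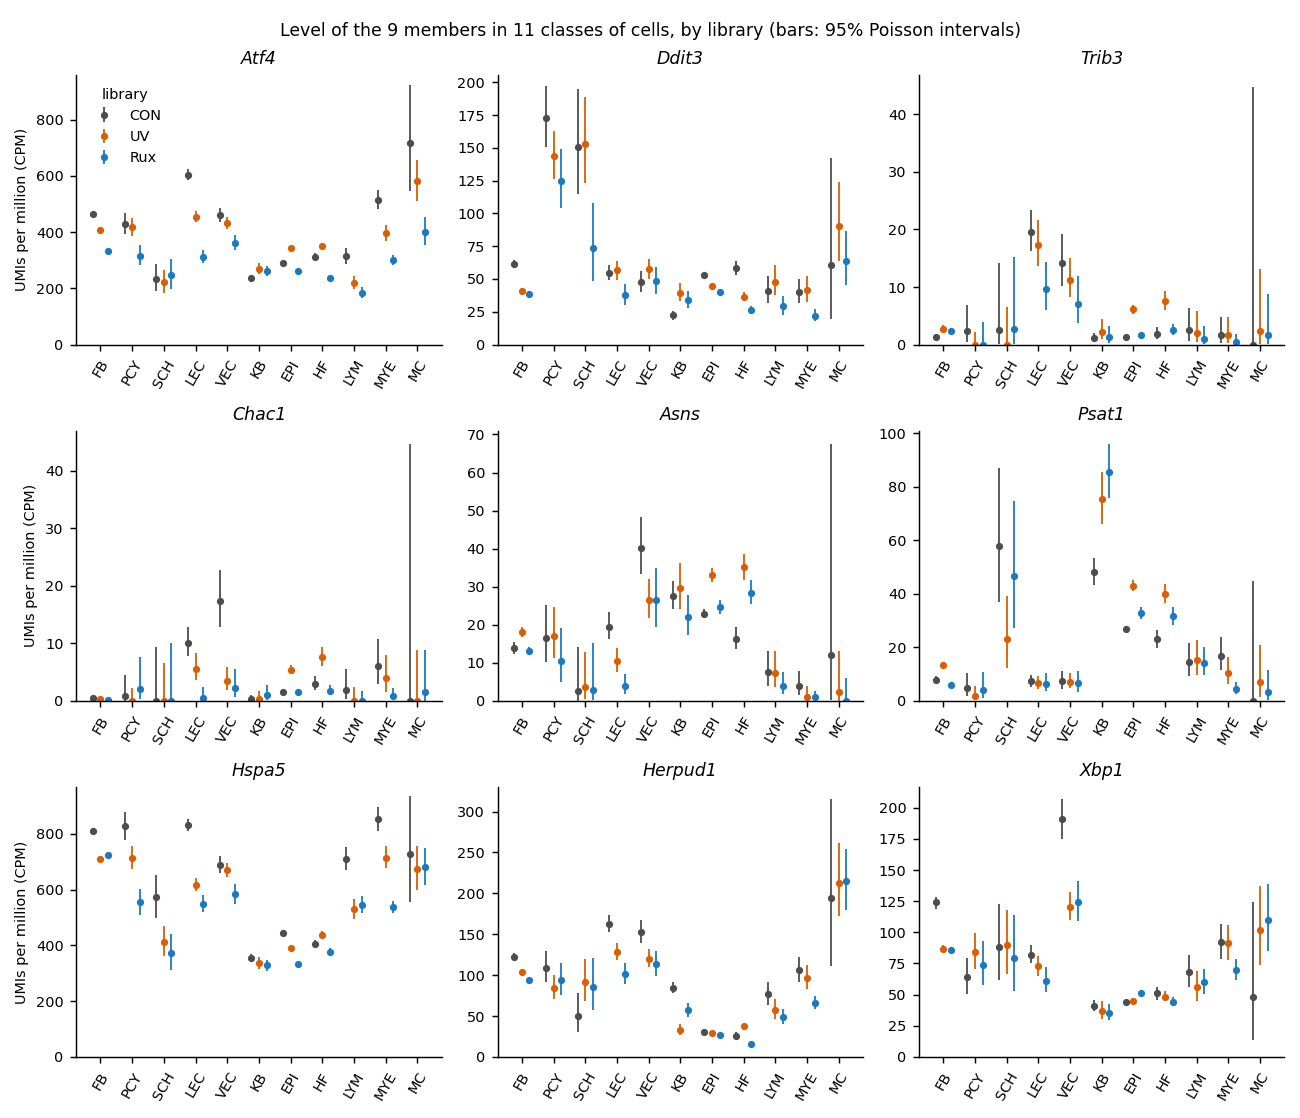
Each panel plots 1 member, with the level in CPM on the y axis and the 11 classes on the x axis. Points are CON, UV and Rux and bars are 95% Poisson intervals. Hspa5 and Atf4 are high in every class, whereas Trib3 stands highest in LEC- and VEC-like cells and Ddit3 in PCY- and SCH-like cells.

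Each member had its own order of cell types, taken in each library over the classes with at least 50 cells there. Trib3 was highest in the lymphatic endothelium, at 19.6, 17.3 and 9.59 CPM in CON, UV and Rux, followed by the vascular endothelium at 14.2, 11.3 and 6.99 CPM, and the intervals of these classes overlapped in each library. In FB-like cells Trib3 reached 1.28, 2.76 and 2.38 CPM. Ddit3 was highest in pericytes, at 173, 144 and 125 CPM, and in Schwann-like cells, at 151, 153 and 74.0 CPM. In CON the intervals of these 2 classes lay above that of the class ranked next, FB at 61.5 CPM. In UV the class ranked next was MC at 90.1 CPM (63.8 to 124). Its interval lay below that of pericytes but overlapped that of Schwann-like cells (123 to 189).

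Xbp1, the IRE1 substrate and a factor of secretory cells, was highest in CON, by the same order, in 53 sebaceous-like cells, at 323 CPM, before the vascular endothelium at 191 CPM, without overlap of their intervals. In UV and Rux, where the sebaceous-like cells, at 31 and 1, were too few to be ranked, the vascular endothelium came first at 120 and 124 CPM. In both its interval overlapped that of the class ranked next. Psat1 had the same leading class in CON, with 161 CPM in the sebaceous-like cells, while basal keratinocytes led in UV and Rux at 75.4 and 85.4 CPM, apart from the class ranked next in both. Asns was highest in CON in the vascular endothelium (40.2 CPM, with no overlap with the 27.6 CPM of KB-like cells), and in UV in HF-like cells (35.1 CPM), whose interval overlapped that of EPI-like cells (33.0 CPM). Of the classes with at least 50 cells, Herpud1 was highest in mast cells in every library, at 194, 213 and 215 CPM, although in CON the interval, over 16 UMIs, overlapped that of LEC-like cells at 163 CPM. In UV it overlapped that of muscle progenitor-like cells at 172 CPM.

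The comparison of UV with CON asks what irradiation of 12 weeks left in each cell type, and in follicle cells it was the ATF4 targets that stood out. In HF-like cells Asns lay at 16.3, 35.1 and 28.4 CPM in CON, UV and Rux, so the UV level over the CON level was 1.11 (0.81 to 1.41) on a log2 scale. Psat1 lay at 23.0, 40.0 and 31.5 CPM, with a log2 ratio of 0.80 (0.55 to 1.06). For both genes UV was highest and Rux stood between UV and CON. Trib3 had 14, 90 and 29 UMIs, or 1.83, 7.52 and 2.53 CPM, a log2 ratio of 2.04 (1.22 to 2.97) for UV over CON and of -1.57 (-2.23 to -0.95) for Rux over UV. Chac1 had 22, 91 and 20 UMIs, or 2.87, 7.60 and 1.75 CPM, with log2 ratios of 1.41 (0.72 to 2.15) and -2.12 (-2.90 to -1.41). The intervals of the CON and Rux levels overlapped for each of these rare genes and lay below that of UV.

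Members were counted as higher or lower when the ratio was at least 1.5-fold and the 2 libraries averaged at least 10 CPM and held at least 50 UMIs together, which left out Trib3 and Chac1 in the epithelium. In HF-like cells 2 of 7 members passing this filter were higher in UV than in CON (Asns and Psat1), where 5.72% of all genes were, and 1 was lower (Ddit3), where 9.19% were. Ddit3 lay at 58.3, 36.3 and 26.5 CPM. For UV over CON its log2 ratio of -0.68 (-0.88 to -0.49) went the other way from the genes it shares its activator with. For Rux over UV it was lower, as they were, at -0.45 (-0.67 to -0.24). Atf4 itself differed less, at 312, 350 and 236 CPM. The median of the members was 0.16, beside -0.11 over all genes passing the filter.

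Between Rux and UV, all 7 members passing the filter in HF-like cells were lower in Rux in some degree, where 57.2% of all genes were. Only Herpud1 was lower by 1.5-fold or more, 1 of 7 against 2.84% of all genes. Herpud1, whose product draws misfolded proteins to the degradation complex of the ER, lay at 26.1, 37.8 and 16.0 CPM, a log2 ratio of -1.24 (-1.50 to -0.99) for Rux over UV. Its Rux level was below both others, with no overlap of intervals. The median of the members was -0.34 and that of all genes -0.04. Hspa5 was close in all 3 libraries, at 404, 439 and 377 CPM, and so was Xbp1 at 51.0, 48.5 and 44.2 CPM.

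The EPI-like cells also had the rare targets highest in UV. Trib3 had 83, 229 and 43 UMIs, or 1.25, 6.11 and 1.60 CPM, with log2 ratios of 2.29 (1.92 to 2.67) for UV over CON and -1.93 (-2.44 to -1.46) for Rux over UV. Chac1 had 96, 202 and 39 UMIs, or 1.44, 5.39 and 1.45 CPM, with log2 ratios of 1.90 (1.54 to 2.27) and -1.89 (-2.42 to -1.39). UV thus stood apart, while the intervals of CON and Rux overlapped for both genes. The make-up of the class differed. The cluster led by Pthlh gave 68, 96 and 186 cells in CON, UV and Rux, and that led by Fhod3 14, 60 and 147. With clusters weighted as in CON, the log2 ratio of Chac1 was -1.24 for Rux over UV and 0.56 for Rux over CON. Unweighted they were -1.89 and 0.01. That of Trib3 for Rux over UV ran from -2.01 to -1.49 over all alternatives. The part of make-up was not tested. Psat1 was the 1 member of 7 past 1.5-fold higher in UV than in CON, where 4.94% of genes were, at 26.8, 43.0 and 32.9 CPM. Asns followed at 22.9, 33.0 and 24.6 CPM, a log2 ratio of 0.53 (0.42 to 0.64). From UV to Rux 0 of 7 members were 1.5-fold lower, where 2.01% of genes were. Atf4 was also highest in UV, at 291, 343 and 260 CPM, while Hspa5 (443, 392 and 335 CPM) and Ddit3 (52.7, 44.7 and 39.8 CPM) were highest in CON and lowest in Rux.

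**Figure D2:**
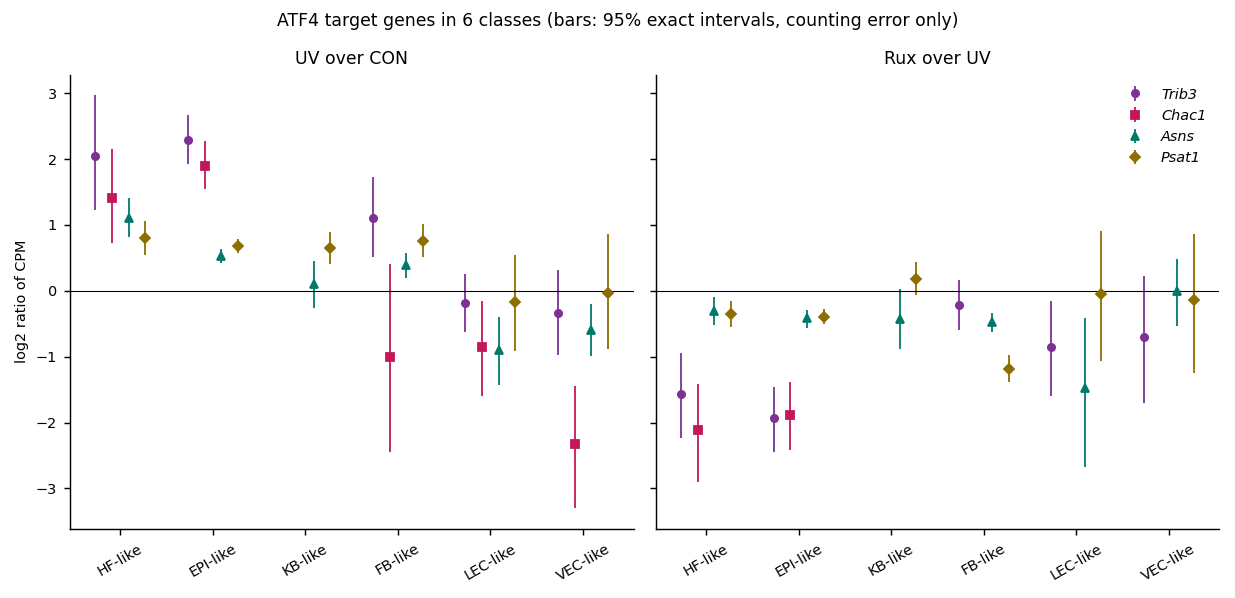
The y axis is the log2 ratio of CPM, for UV over CON on the left and Rux over UV on the right, of 4 genes that ATF4 induces in 6 classes on the x axis, with exact 95% intervals. Pairs with fewer than 20 UMIs in both libraries together or fewer than 3 in either are not drawn. In HF- and EPI-like cells Trib3 and Chac1 lie above 0 on the left and below 0 on the right, and in VEC-like cells Chac1 lies below 0 on the left.

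Within the epithelium the rare targets were not evenly spread. In the EPI-like cluster led by Hist1h1b, Hist1h2ap and Stmn1, genes of dividing cells, Trib3 had 39, 163 and 22 UMIs in CON, UV and Rux, or 1.45, 8.58 and 2.14 CPM, and Chac1 reached 2.49, 7.85 and 2.14 CPM. The neighbouring cluster led by Ptn and Stmn1 had 1.08, 6.77 and 2.16 CPM of Trib3 and 0.851, 5.85 and 2.97 CPM of Chac1. In the HF-like cluster led by Krt71, Krt28 and Krt25, keratins of the inner root sheath, Trib3 stood at 2.03, 9.85 and 1.76 CPM and Chac1 at 2.44, 10.0 and 0.752 CPM. In each of these clusters both genes were highest in UV. In the Ptn cluster both also stood higher in Rux than in CON, with Chac1 over 11, 32 and 11 UMIs.

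The cluster led by Cfd and Sptlc3, too small in Rux, had 3 and 15 UMIs of Trib3 in CON and UV, or 1.89 and 9.57 CPM, and the HF-like cluster led by Krt71, Krt25 and Tchh, too small in CON, had 7.93 and 4.49 CPM in UV and Rux. Other epithelial clusters had few UMIs of Trib3 in each library. The HF-like cluster led by Krt35 and S100a3 had 1, 7 and 2 UMIs of Trib3 in CON, UV and Rux. Its Chac1 stood at 4.46, 5.91 and 4.31 CPM and its Asns at 11.2, 19.8 and 18.6 CPM, so both differed less than in the cluster led by Krt71, Krt28 and Krt25. The cluster led by Defb6, Cst6 and Krt79, genes of the upper follicle, had 9, 8 and 6 UMIs of Trib3 and 6, 2 and 1 of Chac1. The cluster led by Pthlh, Krt6a and Sox9 had 2, 0 and 3 UMIs of Trib3. The cluster led by Gm973, Lhx2 and Pi15 had 15, 6 and 0 UMIs of Trib3 (0.908 and 1.19 CPM in CON and UV), while its Chac1, with 12, 11 and 4 UMIs, stood at 0.727, 2.18 and 1.93 CPM. The cells of the dividing cluster were 714, 469 and 240, and without it the EPI-like log2 ratio of Trib3 for UV over CON was 1.68.

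In UV, EPI-like cells with a UMI of Chac1 also carried more of the other targets than EPI-like cells without one. Trib3 was at 18.3 CPM in the 124 cells with Chac1 and at 4.15 CPM in the rest, Asns at 55.0 against 29.5 CPM, Psat1 at 57.0 against 40.7 CPM and Atf4 at 466 against 324 CPM. Ddit3 was at 35.9 against 46.1 CPM. CON had the same directions, with Trib3 at 4.35 against 1.10 CPM, Asns at 39.2 against 22.1, Psat1 at 34.2 against 26.5 and Atf4 at 386 against 286. So had Rux, except for Psat1 at 30.9 against 33.0 CPM. The cells with Chac1 were deeper in each library, in UV with a median of 32178 UMIs against 19352. The part of depth and of the cluster in these values was not tested. In cells thinned to 2000 UMIs, a Trib3 UMI was found in 0.154%, 1.14% and 0.281% of EPI-like cells in CON, UV and Rux and a Chac1 UMI in 0.192%, 1.28% and 0.374%, after leaving out 20, 32 and 23 shallower cells. Only 4, 16 and 3 cells had Trib3 and 5, 18 and 4 had Chac1. For both genes the interval of UV lay above that of CON but overlapped that of Rux. In unthinned cells these shares were 2.96%, 11.0% and 3.74% for Trib3 and 2.65%, 8.82% and 3.18% for Chac1, whereas Chac1 in FB-like cells, which hold little of it, was found in 0.301%, 0.164% and 0.0807%. Median depth was 19906, 20887 and 19491 UMIs in these EPI-like cells and 6285, 7583 and 10146 in the FB-like cells. In thinned HF-like cells the shares were 1.02%, 1.34% and 0.270% for Trib3 and 0.341%, 0.893% and 0% for Chac1. Those of Asns were 4.78%, 6.03% and 6.22% and those of Psat1 4.78%, 5.80% and 7.30%, so Rux was not below UV for Asns and Psat1. For each of these genes the intervals of the HF-like shares overlapped between all libraries.

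**Figure D3:**
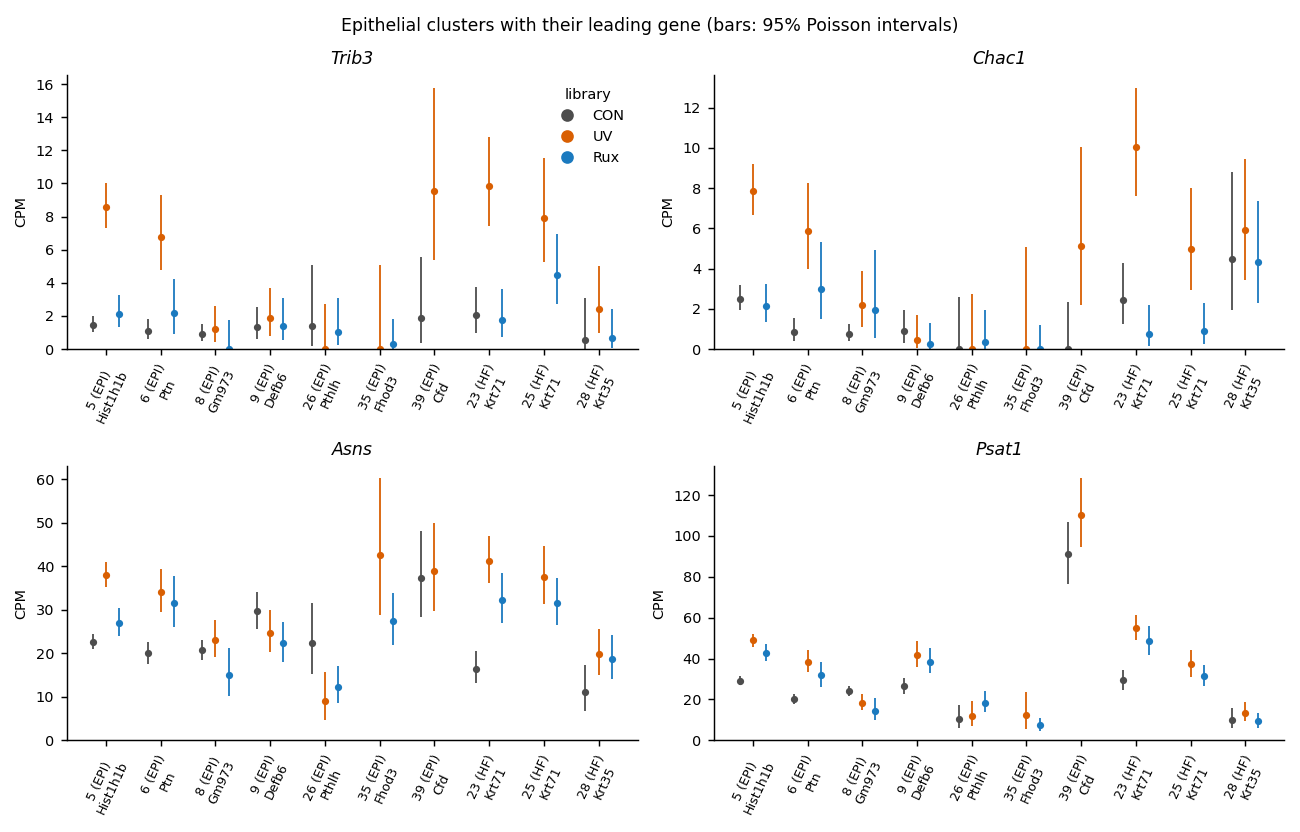
Each panel plots the CPM of 1 ATF4 target on the y axis over the EPI- and HF-like clusters on the x axis, each named by its leading gene, with CON, UV and Rux as points and 95% Poisson intervals as bars. The Hist1h1b, Ptn and Krt71 clusters have their highest Trib3 and Chac1 in UV, at 8.58, 6.77 and 9.85 CPM for Trib3.

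Basal keratinocytes were few in UV and Rux, with 532, 92 and 124 KB-like cells, and most of them came from different clusters: the one led by Col17a1 and Krt15 gave 460, 19 and 71 cells and the one led by Krt14, Krt5 and Stfa3, with Top2a and Mki67 among its leading genes, gave 72, 73 and 53. Psat1 lay at 48.0, 75.4 and 85.4 CPM in CON, UV and Rux, Ddit3 at 22.2, 39.7 and 33.8 CPM, and Herpud1 at 84.7, 33.5 and 56.8 CPM. For UV over CON 2 of 7 members were higher (Ddit3 and Psat1), where 16.4% of genes were, and 1 was lower (Herpud1), where 8.17% were. For Rux over UV 1 was higher (Herpud1), where 5.05% were, and 0 lower, where 7.16% were. For Rux over CON 2 were higher (Ddit3 and Psat1), where 13.8% were, and 0 lower, where 7.87% were. Within the cluster led by Krt14, Psat1 stood at 59.1, 82.9 and 99.6 CPM, Ddit3 at 26.9, 41.1 and 37.8 CPM and Herpud1 at 66.0, 35.4 and 48.0 CPM, so the order of the libraries was the same as in the class. Asns stood there at 29.9, 31.1 and 22.9 CPM, and Trib3 had 4, 7 and 3 UMIs. With clusters weighted as in CON, the log2 ratio of Psat1 for UV over CON turned from 0.65 to -0.63. With a stricter cell filter, without doublet removal and at clustering resolution 0.8, that of Herpud1 for Rux over UV turned from 0.76 to -0.09, -0.15 and -0.12, and that of Psat1 for Rux over CON from 0.83 to -0.39, -0.01 and -0.32. The rare targets had too few counts to compare, with 8, 7 and 4 UMIs of Trib3 and 2, 1 and 3 of Chac1.

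Fibroblasts were the class with the most cells, at 3470, 5155 and 5095. Ddit3 lay at 61.5, 40.7 and 38.8 CPM in CON, UV and Rux, a log2 ratio of -0.60 (-0.70 to -0.50) for UV over CON and of -0.66 (-0.76 to -0.57) for Rux over CON. Xbp1 followed the same order at 124, 86.9 and 86.2 CPM, with -0.51 (-0.58 to -0.44) and -0.52 (-0.59 to -0.45). In both cases UV and Rux were close and CON was apart. Atf4 was lower in each step, at 465, 408 and 334 CPM, and Herpud1 too, at 122, 104 and 94.1 CPM. Hspa5 stood at 810, 711 and 723 CPM.

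The targets of amino acid metabolism had another order in fibroblasts. Psat1 had 190, 526 and 333 UMIs, or 7.87, 13.3 and 5.87 CPM, a log2 ratio of 0.76 (0.52 to 1.01) for UV over CON and of -1.18 (-1.39 to -0.98) for Rux over UV, the latter below the filter of 10 CPM. Asns stood at 13.8, 18.1 and 13.0 CPM, with 0.39 (0.20 to 0.58) and -0.48 (-0.63 to -0.33). Both were highest in UV. Trib3 was lowest in CON, with 31, 109 and 135 UMIs and a log2 ratio of 1.11 (0.52 to 1.73) for UV over CON, while Rux over UV was -0.22 (-0.59 to 0.16). That last ratio was 0.71 with clusters weighted as in CON and -0.95 without the 3 FB-like clusters highest in immediate-early genes. Chac1 was scarce, with 11, 9 and 5 UMIs.

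By the count rule, for UV over CON in FB-like cells 1 of 7 members was higher (Psat1) against 6.27% of genes, and 1 was lower (Ddit3) against 8.42%. For Rux over UV 0 of 6 were higher against 3.33% of genes, and 0 were lower against 5.17%. For Rux over CON 0 of 6 were higher against 7.17%, and 1 was lower (Ddit3) against 9.97%. The medians of the members were -0.19, -0.10 and -0.43 in these comparisons, beside -0.11, 0.03 and -0.08 over all genes. With clusters weighted as in CON, the log2 ratio of Ddit3 for UV over CON was -0.17 and that of Psat1 0.41, both under 1.5-fold, and that of Asns -0.04.

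Over the FB-like clusters with at least 50 cells in both libraries, Atf4 was higher in UV than in CON in 0 of 8, Ddit3, Hspa5, Xbp1 and Herpud1 in 1 each, Asns in 5, and Trib3 and Psat1 in 6 each. From UV to Rux, Psat1 was higher in 0 of 10. The clusters come from the same libraries and are not replicates, and over the whole class 63.1% of all genes were lower in UV than in CON. The cluster led by Ptx3, Sdk1 and C3 had the highest Asns and Psat1 in UV, with Psat1 at 11.7, 22.6 and 5.38 CPM and Asns at 21.1, 31.8 and 15.8 CPM. In cells thinned to 2000 UMIs a Psat1 UMI was found in 1.32%, 2.68% and 0.968% of FB-like cells and an Xbp1 UMI in 21.3%, 15.7% and 15.4%, while the shares without thinning were 4.85%, 8.48% and 5.59% for Psat1 and 50.3%, 44.9% and 54.2% for Xbp1. The thinned shares had the order of the CPM in each case, with 149, 272 and 137 shallower cells left out.

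A list of 13 immediate-early genes, which dissociation of tissue can raise, differed between the libraries in fibroblasts. Its summed level was 21243, 10206 and 11422 CPM in CON, UV and Rux, and 10 of its 13 genes were at least 1.5-fold lower in UV than in CON. In HF-like cells the sums were 5632, 4144 and 3587 CPM, in EPI-like cells 7277, 6677 and 6865 CPM, in LEC-like cells 14891, 10963 and 11870 CPM and in VEC-like cells 12010, 10224 and 9958 CPM. Without the 3 FB-like clusters highest in this list in CON, the log2 ratio of Ddit3 for UV over CON was -0.84, and that of Atf4 was -0.02. The part of this response in the member levels was not tested.

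**Figure D4:**
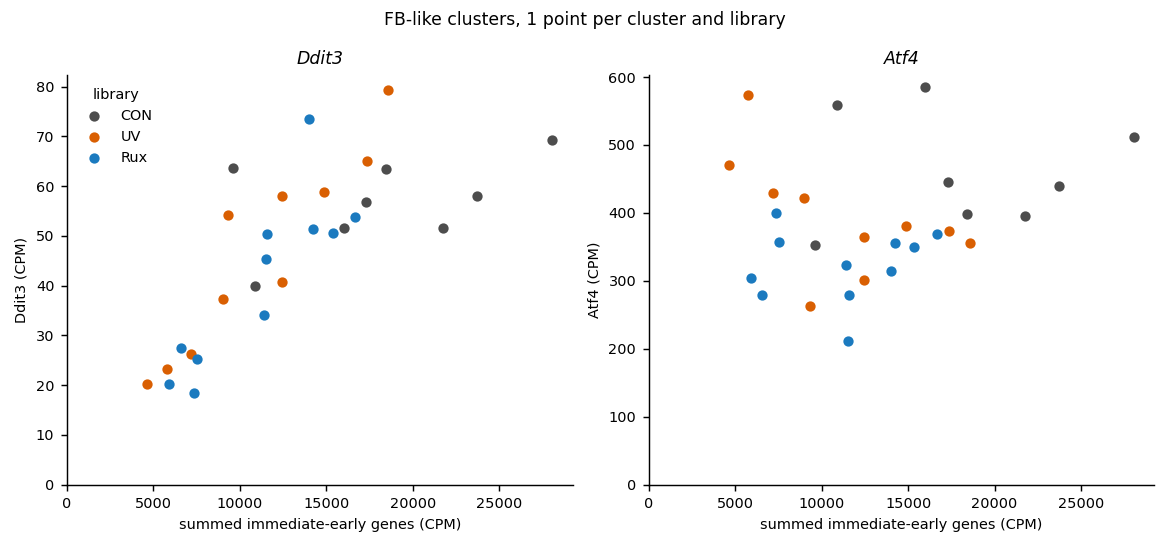
The level of Ddit3 (left) and Atf4 (right) in CPM on the y axis is set against the summed level of the immediate-early list in CPM on the x axis, with 1 point per FB-like cluster and library. Over all FB-like cells the list stood at 21243 CPM in CON and at 10206 and 11422 CPM in UV and Rux, and Ddit3 at 61.5, 40.7 and 38.8 CPM.

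In the lymphatic endothelium all members but Ddit3, at 54.7, 56.5 and 37.5 CPM, were highest in CON and lowest in Rux. Atf4 lay at 605, 455 and 313 CPM, Hspa5 at 832, 618 and 550 CPM, and Herpud1 at 163, 128 and 101 CPM. Asns had 120, 45 and 9 UMIs, or 19.4, 10.4 and 3.75 CPM, with log2 ratios of -0.90 (-1.43 to -0.40) for UV over CON and -2.37 (-3.53 to -1.40) for Rux over CON. All 4 had the same order of libraries, with UV between the others. Chac1 had 62, 24 and 1 UMIs, or 10.0, 5.53 and 0.417 CPM. For UV over CON 1 of 7 members was lower (Asns) against 4.97% of genes, and for Rux over CON 5 of 7 were lower (Atf4, Trib3, Asns, Hspa5 and Herpud1) against 10.00%. Their median for Rux over CON was -0.68, beside 0.08 over all genes.

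The vascular endothelium showed the same direction mainly in Chac1, Xbp1 and Asns. Chac1 had 50, 14 and 4 UMIs, or 17.3, 3.45 and 2.15 CPM, a log2 ratio of -2.33 (-3.30 to -1.45) for UV over CON. In CON, 31 of the 50 UMIs lay in the 10 cells with the most. Xbp1 lay at 191, 120 and 124 CPM and Asns at 40.2, 26.6 and 26.4 CPM, with UV and Rux together and below CON. The make-up of the class differed. The cluster led by Selp, Sele and Vwf gave 179 and 89 cells in CON and UV, with Xbp1 at 225 and 175 CPM and Asns at 42.7 and 40.1 CPM. The cluster led by Iglc2, Flt1 and Gpihbp1 gave 227 and 383 cells, with Xbp1 at 170 and 103 CPM and Asns at 35.2 and 22.8 CPM. The part of make-up in the class values was not tested. For UV over CON 3 of 8 members were lower (Asns, Chac1 and Xbp1) against 6.02% of genes, and for Rux over CON 3 of 7 (Trib3, Asns and Xbp1) against 11.7%. Over whole classes, HF- and EPI-like cells thus had the opposite direction to both kinds of endothelium for Chac1 and Asns from CON to UV. Not every epithelial cluster or class shared it. Asns went from 22.4 to 8.93 CPM in the EPI-like cluster led by Pthlh and from 27.6 to 29.7 CPM in KB-like cells. With 1 library per condition the difference between classes could not be tested.

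Immune and nerve classes carried fewer counts. In MYE-like cells 4 of 5 members were lower in Rux than in CON (Atf4, Ddit3, Hspa5 and Herpud1), in a class where 21.2% of genes were. Atf4 stood there at 515, 397 and 300 CPM and Hspa5 at 852, 715 and 537 CPM. In SCH-like cells Ddit3 had 60, 87 and 27 UMIs, with a log2 ratio of -1.05 (-1.73 to -0.41) for Rux over UV, and Herpud1 had 20, 52 and 31 UMIs. Atf4 in LYM-like cells lay at 315, 220 and 185 CPM and in mast cells at 716, 581 and 402 CPM.

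Across classes some directions were widely shared. Ddit3 was lower in Rux than in UV in 11 of 11 classes that passed the filter, with the interval below 0 in 6 and a difference of at least 1.5-fold in 4. Atf4 was lower in 10 of 11, with the interval below 0 in 9 and none past 1.5-fold, and its log2 ratios ran from -0.57 to 0.15. Hspa5 was lower in Rux than in CON in 11 of 11, with the interval below 0 in 10 and log2 ratios from -0.67 to -0.10, and lower in UV than in CON in 10 of 11, with the interval below 0 in 7. Asns was lower in Rux than in UV in 5 of 5, with the interval below 0 in 3. By class, 43.5% (LEC) to 57.2% (HF) of all genes passing the filter were lower in Rux than in UV. Lower by at least 1.5-fold were 2.01% (EPI) to 12.7% (MYE). For Rux over CON 43.2% (LEC) to 63.3% (HF) were lower, and for UV over CON 41.9% (KB) to 63.1% (FB). The classes of a library share its preparation and are not replicates, and these comparisons share libraries.

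The wider pathway was read from 7 lists. In HF-like cells, 11 of 12 aminoacyl-tRNA synthetases, which ATF4 is also known to induce, were higher in UV than in CON by some amount and 2 by at least 1.5-fold, with a median log2 ratio of 0.36 beside -0.11 over all genes. Of all genes 37.5% were higher by some amount and 5.72% past 1.5-fold. Of the amino acid synthesis and one-carbon genes 5 of 5 were higher and 1 past 1.5-fold (median 0.41), and of the amino acid transporters 5 of 6 were higher and 2 past 1.5-fold (median 0.47). From UV to Rux the medians of these lists in the order given were -0.25, -0.36 and -0.74, beside -0.04, with 0 of 12, 2 of 6 and 3 of 5 genes at least 1.5-fold lower, where 2.84% of all genes were. Mthfd2, a mitochondrial enzyme of one-carbon metabolism, went from 44.9 to 66.6 to 34.1 CPM and Slc7a1, a transporter of arginine and lysine, from 36.1 to 56.6 to 31.3 CPM. The ER chaperones and folding enzymes (median -0.07 for UV over CON and -0.01 for Rux over UV, over 17 genes) and the ER-associated degradation genes (-0.07 and -0.07, over 9 genes) lay near the medians of all genes. Of 13 integrated stress response factors 6 were higher and 7 lower in UV than in CON, 1 and 3 of them past 1.5-fold (median -0.16).

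In EPI-like cells 10 of 12 synthetases were higher in UV than in CON and 2 past 1.5-fold, against 4.94% of all genes (median 0.32 beside -0.05), and 11 of 12 were lower in Rux than in UV and 1 past 1.5-fold, against 2.01% (-0.27 beside -0.01). By any amount, 41.4% of all genes were higher in UV than in CON and 51.6% lower in Rux than in UV. The ER chaperones went the other way from CON to UV, with 15 of 17 lower, where 58.6% of all genes were, 3 past 1.5-fold, where 3.26% were, and a median of -0.36. Of 14 integrated stress response factors 7 were higher and 7 lower, 1 and 2 of them past 1.5-fold (median -0.05). In Rux over UV their median was -0.01.

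In FB-like cells the lists gave a mixed picture for UV over CON. Of 15 integrated stress response factors 1 was higher and 5 lower by 1.5-fold, beside 6.27% and 8.42% of all genes. The highest ratios were those of Eif2ak4, the kinase GCN2 that senses uncharged tRNA (42.5 to 67.9 CPM, log2 ratio 0.68), and Sesn2 (0.54), and the lowest those of Gdf15, a stress cytokine (23.2 to 7.68 CPM, -1.60), and Ppp1r15a, the phosphatase subunit GADD34 that ends the response (883 to 391 CPM, -1.18). Of 7 sensors of the unfolded protein response and their proteases Ern1, which encodes IRE1, was highest (75.3 to 138 CPM, 0.87) and Atf6b lowest (12.7 to 8.31 CPM, -0.61). Among the transporters Slc7a1 went from 124 to 237 CPM (0.93), and among 5 synthesis genes 2 were lower by 1.5-fold, Phgdh (19.7 to 11.0 CPM, -0.84), the enzyme before Psat1 in serine synthesis, and Aldh18a1 (25.4 to 15.7 CPM, -0.70). Cars (0.73) led the synthetases, Edem2 (0.67) and Syvn1 (-0.69) bounded the degradation genes, and Creld2 (-0.63) was the lowest of the chaperones.

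From UV to Rux in FB-like cells the amino acid transporters were all lower, 6 of 6, with 2 past 1.5-fold, where 5.17% of all genes were, and a median of -0.45 beside 0.03. By any amount, 44.5% of all genes were lower in Rux than in UV and 55.5% higher. Slc7a11, the cystine transporter, went from 32.0 to 10.9 CPM (log2 ratio -1.55) and Slc7a5, the leucine transporter, from 66.9 to 31.6 CPM (-1.08). The synthetases were lower in 10 of 11, with 2 past 1.5-fold, Yars (-0.81) and Iars (-0.71), and a median of -0.39. Mthfd2 went from 17.3 to 9.55 CPM (-0.86). The ER chaperones went the other way, with 13 of 16 higher, 3 past 1.5-fold, where 3.33% of all genes were, and a median of 0.29. Creld2 (10.3 to 19.7 CPM, 0.94) and Sdf2l1 (8.90 to 15.3 CPM, 0.78) had the highest ratios among them, and Gdf15 (7.68 to 15.3 CPM, 0.99) and Ddit4 (0.65) those of the stress response factors.

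Over the 43 sums of a class in a library with at least 50 cells, the level of Atf4 on a log2 scale went most closely with Ranbp2 (Pearson r = 0.811), Sbds (0.793) and Hspa5 (0.789), and that of Hspa5 with Arf4 (0.815), Atf4 (0.789) and BC005537 (0.782). Ddit3 went most closely with Ppp1r12a (0.872), Trib3 with Myzap (0.801) and Nos3, the endothelial nitric oxide synthase (0.771), Asns with Psmg1 (0.829), Psat1 with Thumpd3 (0.829), Xbp1 with Pgrmc1 (0.740), Herpud1 with Hk1 (0.882) and Chac1 with Mylpf (0.629). Between members, Hspa5 had r = 0.73 with Herpud1 and 0.71 with Xbp1, whereas Atf4 had 0.14 with Asns and -0.07 with Psat1. These sums share libraries and depth, and the values are descriptions over 9754 genes.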

How the data were processed

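The authors deposited 1 matrix of unnormalized UMI counts (genes by cells) for every library, from Cell Ranger (7.0.0 in the file headers, 6.1.2 in the submitters' processing notes). By default the former version also counts intronic reads.

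Cells were kept with 200 or more genes and no more than 10% mitochondrial UMIs, and doublets marked by Scrublet in scanpy 1.11.5 were removed at 0.8% per 1000 cells. Seurat 5.3.0 in R 4.3.3 clustered the 3 libraries together (2000 variable genes without the members and pathway genes, 30 principal components, resolution 1.5, no batch correction). A class needed at least 3 of its markers, each in at least 10% of the cells of the cluster. UMI counts were summed per class and library. Depth per library was 165337289 (CON), 133972374 (UV) and 131570327 (Rux) UMIs.

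With 1 library per condition no test was made. Intervals were checked on simulated Poisson counts, the model they assume, so the check does not cover UMIs that gather in few cells. A ratio was called at 1.5-fold, a mean of 10 CPM and 50 UMIs. The members, lists and alternatives were chosen with earlier results of these data known. Named were all 9 members, the 2 highest and 2 lowest genes of each list in FB-like cells for UV over CON and Rux over UV, and the 3 genes most like each member. Values of such genes in other classes, and the leading genes of clusters, are given only to describe those classes. Where the notes and headers differ on the version, the header was followed. Python 3.11.15 with pandas 2.3.3, scipy 1.17.1 and numpy 2.4.6 gave the sums and intervals, and matplotlib 3.10.9 drew the figures.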

Additional observations from a re-analysis of the deposited data

Results flagged for a closer look

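Each value here is a log2 ratio of a member that was at least 1.5-fold higher in one class and at least 1.5-fold lower in another in the same comparison. With 1 library per condition the difference between the classes was not tested.

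For UV over CON, Ddit3 stood at 0.84 in KB-like cells and at -0.60 and -0.68 in FB- and HF-like cells. Asns stood at 1.11 in HF-like cells and at -0.60 and -0.90 in VEC- and LEC-like cells. Chac1 stood at 1.90 in EPI-like and 1.41 in HF-like cells, and at -2.33 in VEC-like and -0.86 in LEC-like cells. Herpud1 stood at 0.86 in SCH-like cells and at -1.34 in KB-like cells.

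For Rux over UV, Herpud1 stood at 0.76 in KB-like cells and at -1.24 in HF-like cells. The KB-like value was -0.09, -0.15 and -0.12 with a stricter cell filter, without doublet removal and at clustering resolution 0.8. For Rux over CON, Ddit3 stood at 0.61 in KB-like cells and at -0.66, -1.14, -0.87 and -1.03 in FB-, HF-, MYE- and SCH-like cells. Trib3 stood at 0.89 in FB-like cells and at -1.02 and -1.03 in VEC- and LEC-like cells. The FB-like value was 0.17, under 1.5-fold, without the 3 clusters highest in immediate-early genes, and 1.67 with clusters weighted as in CON. Asns stood at 0.80 in HF-like cells and at -0.61 and -2.37 in VEC- and LEC-like cells.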

How the results depend on the processing

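Each condition had 1 library, so leaving out a replicate was not run. No paired analysis was possible because each group had 1 library. The alternatives for EPI- and HF-like cells, and leaving out clusters, were chosen after seeing the data. Log2 ratios under alternatives gave 270 values in each class. Of these, 222 in FB-, 214 in KB-, 208 in EPI- and 261 in HF-like cells moved by less than the counting interval of the main ratio. Small ratios can change sign within that interval, so these counts do not show that direction was kept. Xbp1 for Rux over UV in FB-like cells, for example, went from -0.01 to 0.02 with median-of-ratios scaling. The causes of the changes below were not tested.

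In FB-like cells, the members higher in UV than in CON (1) were 2 with a minimum of 20 UMIs, 0 at 2-fold and 0 with clusters weighted as in CON. Those lower (1) were 0 with median-of-ratios scaling, 0 with equal weight per cell, 2 with 20 UMIs, 0 at 2-fold and 0 weighted as in CON. For Rux over UV those lower (0) were 1 with 20 UMIs and 2 without the 3 clusters highest in immediate-early genes. For Rux over CON those higher (0) were 1 with 20 UMIs, and those lower (1) were 0 with median-of-ratios scaling, with equal weight per cell, at 2-fold and weighted as in CON.

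In KB-like cells, members higher in UV than in CON (2) were 1 with the strict filter (500 or more genes, no more than 5% mitochondrial UMIs), the loose one (at most 20%), resolution 0.8, median-of-ratios scaling or equal weight per cell, and 0 at 2-fold or weighted as in CON. Those lower (1) were 0 without doublet removal and 2 weighted as in CON. For Rux over UV those higher (1) were 0 with the strict or loose filter, without doublet removal, at resolution 0.8 or at 2-fold, and 2 weighted as in CON. Those lower (0) were 1 with the strict filter, without doublet removal or at resolution 0.8. For Rux over CON those higher (2) were 1 with either filter, at resolution 0.8, with the members kept among the variable genes, with median-of-ratios scaling or with equal weight, and 0 without doublet removal, at 2-fold or weighted as in CON. Those lower (0) were 1 with either filter, without doublet removal, at resolution 0.8, with the members kept or with median-of-ratios scaling.

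Of the log2 ratios whose counting interval left out 0, these turned. Weighted as in CON, Asns for UV over CON was -0.04 and Herpud1 for Rux over UV 0.01 in FB-like cells, Psat1 for UV over CON -0.63 in KB-like cells, and Xbp1 for Rux over CON -0.01 in EPI-like cells. In KB-like cells, with the strict filter, without doublet removal and at resolution 0.8, Herpud1 for Rux over UV was -0.09, -0.15 and -0.12, Atf4 for Rux over CON -0.27, -0.23 and -0.18, and Psat1 for Rux over CON -0.39, -0.01 and -0.32. With the loose filter Atf4 and Hspa5 for Rux over CON were -0.13 and 0.02. In EPI-like cells Ddit3 for UV over CON was 0.03 with equal weight per cell and 0.04 without the Hist1h1b cluster. In HF-like cells Hspa5 for Rux over CON was 0.04 with median-of-ratios scaling. In EPI- and HF-like cells Trib3 and Chac1 stayed above 0 for UV over CON (1.68 to 2.32 and 1.00 to 2.00) and below 0 for Rux over UV (-2.01 to -1.36 and -2.19 to -1.24) in all alternatives run. Depth limits the rare members, with 14 UMIs of Trib3 in HF-like cells of CON.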

Other observations

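Classes too small for the comparisons held high levels of some members. In B- and plasma-like cells, of which there were 8, 11 and 1 in CON, UV and Rux, Herpud1 stood at 1135 and 993 CPM in CON and UV, Xbp1, a factor that plasma cells need for secretion, at 751 and 578 CPM, and Chac1 at 75.1 and 357 CPM, the last over 8 and 86 UMIs. In sebaceous-like cells, of which there were 53 in CON and 31 in UV, Hspa5 stood at 884 and 573 CPM, Xbp1 at 323 and 191 CPM and Psat1 at 161 and 249 CPM. In skeletal muscle-like cells Chac1 had 12, 3 and 14 UMIs in CON, UV and Rux, or 24.1, 27.6 and 86.2 CPM.

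The cells left out for more than 10% mitochondrial UMIs, 1073, 875 and 967 in CON, UV and Rux, had lower levels of Atf4, at 215, 202 and 192 CPM, and of Hspa5, at 381, 376 and 349 CPM, than the cells kept. Some members went the other way in Rux. There Asns stood at 24.9 CPM in the cells left out against 16.7 in those kept, and Psat1 at 29.8 against 17.6 CPM. Trib3 and Chac1, over 10 and 3 UMIs, were also higher in the cells left out of Rux, and Trib3, over 7 UMIs, in those left out of CON.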
